A study of Glycine max with 12 samples.

Results

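The anthocyanin and proanthocyanidin pathway enzymes described here are 5 soybean genes, taken by locus and not by any measured value, and every splice model of each locus was to be included. Each locus had 1 gene model, so that 5 of the 78773 gene models of the series were followed through all 12 libraries. They are F3'H (Glyma06g21920, flavonoid 3'-hydroxylase, the classical T locus), F3'5'H (Glyma13g04210, flavonoid 3',5'-hydroxylase, the W1 locus), DFR1 (Glyma14g07940, dihydroflavonol reductase), ANS (Glyma01g42350, anthocyanidin synthase) and ANR1 (Glyma08g06630, anthocyanidin reductase). By their identifiers they lie on chromosomes 6, 13, 14, 1 and 8 in that order, and the models are 1896, 1519, 1286, 1308 and 1325 bases long in the same order.

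Anthocyanins and proanthocyanidins share a route that starts from chalcone and passes through dihydroflavonols. F3'H and F3'5'H are cytochrome P450 enzymes that add hydroxyl groups to the B ring and so set whether cyanidin-type or delphinidin-type pigments can form. DFR reduces dihydroflavonols to leucoanthocyanidins, ANS oxidises these to the coloured anthocyanidins, and ANR turns anthocyanidins into the colourless flavan-3-ols from which proanthocyanidins (condensed tannins) are built. In soybean the black pigment of the seed coat is laid down in the epidermal layer, where the I locus controls how far pigment spreads and the R and T loci set its colour.

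The study asked how the net pattern mutation, which makes the seed coat crack before maturity, alters the transcripts of the coat. Seed coats were dissected from immature greenhouse-grown seed of 4 lines at fresh weights of 50–100, 100–200 and 400–500 mg, with seeds of a weight class pooled, and 1 library was sequenced per line and stage. The Clark defective line carries the alleles i R T, which give a black coat, together with the mutation, and the Clark standard line carries i R T without it. The Harosoy defective line carries I r t, which give a yellow coat, together with the same mutation, and the Harosoy standard line carries I r t alone. The mutation is an unidentified gene or set of genes, called Def by the study, that was moved by repeated backcrossing into each cultivar, so that each defective genotype is represented by 1 backcross line and any linked donor segment goes with it. The sample labels give a standard phenol-chloroform extraction for the Harosoy lines and a modified one against procyanidins for dark coats, while the study's methods describe only the modified one. If the lines were extracted as labelled, the background and the extraction cannot be told apart. Reads of 75 bp from a GAII instrument made up the 100–200 mg libraries and reads of 100 bp from a HiSeq instrument all others, so that this stage and the platform cannot be told apart either.

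Values are RPKM, the hits on a gene model scaled by the length of the model and by the total hits of the library. The libraries held 47502101 to 113028740 hits, and the 5 models had between 0 and 36140 hits each. Intervals given below are 95% intervals of the hits and cover counting error only, since no line had a second library at any stage. The summed RPKM of 4 seed coat genes (the proline-rich proteins PRP1 and PRP2 and 2 laccases) was 1378 to 13320, most of it PRP1 or PRP2, and the laccases also stand among the pathway loci described last. The summed RPKM of 6 cotyledon storage protein genes was 20.4 to 1092, and that of 6 photosystem genes of green tissue 14.9 to 272.6. None of these 16 markers was at 0 in any library.

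F3'H, DFR1, ANS and ANR1 were all abundant in the youngest seed coats and low in the oldest, while F3'5'H was nearly absent from every library except those of Clark at 400–500 mg. The 5 genes summed to 705 RPKM in Clark defective, 833 in Clark standard, 784 in Harosoy defective and 683 in Harosoy standard at 50–100 mg. The corresponding sums at 400–500 mg were 55.5 in Clark defective, 104 in Clark standard, 13.2 in Harosoy defective and 16.3 in Harosoy standard. The youngest coats of the yellow and the black lines thus held similar totals, and the oldest coats of both Clark lines held more than those of both Harosoy lines.

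**Figure D1:**
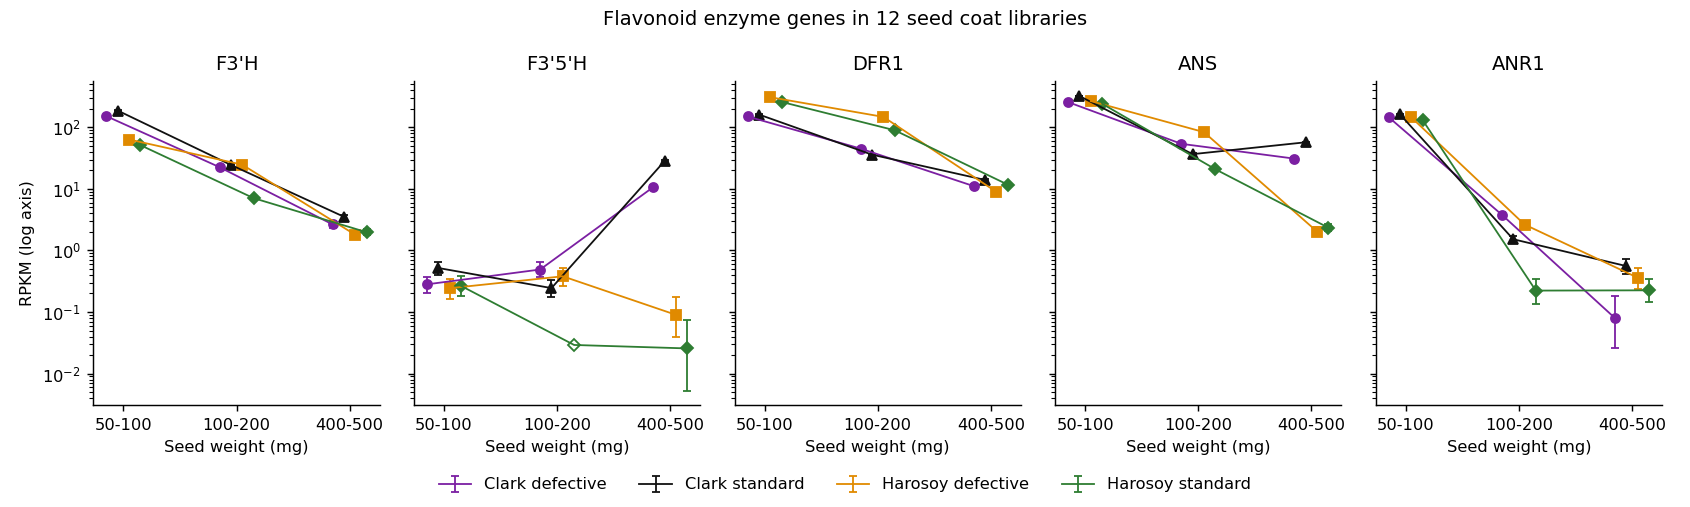
RPKM (log axis) of the 5 genes against seed weight in the 4 lines, 1 library per point, with 95% counting intervals as bars and an open symbol at the level of 3 hits where a library had none. F3'H, DFR1, ANS and ANR1 start at 51.4 RPKM or more at 50–100 mg and end lower in all 4 lines, ANS in Clark standard after a low at 100–200 mg, and F3'5'H reaches 10.7 RPKM in Clark defective and 28.4 RPKM in Clark standard at 400–500 mg while every other library is under 1 RPKM.

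F3'H adds the hydroxyl group that leads towards cyanidin-type pigments and is the product of the T locus, for which Clark is T and Harosoy is t. F3'H at 50–100 mg had 152 RPKM in Clark defective, 187 in Clark standard, 63.4 in Harosoy defective and 51.4 in Harosoy standard. At 100–200 mg it had 22.5 RPKM in Clark defective, 24.5 in Clark standard, 24.7 in Harosoy defective and 7.09 in Harosoy standard. Its level at 400–500 mg was 2.64 RPKM in Clark defective, 3.52 in Clark standard, 1.79 in Harosoy defective and 1.98 in Harosoy standard. The libraries of the 3 stages did not overlap. The share of all models with such a separation of libraries was not counted, here or for the members below. The level at 400–500 mg was 57.4-fold lower than at 50–100 mg in Clark defective, 53.2-fold lower in Clark standard, 35.4-fold lower in Harosoy defective and 26.0-fold lower in Harosoy standard. In a fit that takes the 4 lines in place of replicates, F3'H fell by 4.86 on the log2(RPKM + 1) scale (SE 0.297, limma adjusted p = 9.625e-06). In the order of its 12 levels 2 of the 11 neighbouring steps were within counting error, namely Harosoy defective and Clark standard at 100–200 mg and the Harosoy lines at 400–500 mg.

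F3'H was higher in Clark than in Harosoy in 5 of the 6 comparisons of matched genotype and stage. The Clark level was 2.39-fold higher in the defective lines and 3.64-fold higher in the standard lines at 50–100 mg. The Clark level at 100–200 mg was 0.910 of the Harosoy level in the defective lines (95% interval 0.865 to 0.958) and 3.46-fold higher in the standard lines. The Clark level at 400–500 mg was 1.47-fold higher in the defective lines and 1.78-fold higher in the standard lines. The exception was therefore Harosoy defective at 100–200 mg, where F3'H stood 3.49-fold above Harosoy standard. Over the 6 matched comparisons the difference was 0.93 on the log2 scale (SE 0.259, limma adjusted p = 0.0461), and F3'H was the only member past the threshold of 0.05. This call was lost in 8 of 12 alternative analyses, among them the fits that left out any 1 stage (adjusted p = 0.0961 to 0.2145), and the difference stayed positive in all 12.

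F3'5'H adds hydroxyl groups at both B-ring positions and opens the branch towards delphinidin-type pigments. F3'5'H at 50–100 mg had 0.282 RPKM in Clark defective, 0.519 in Clark standard, 0.244 in Harosoy defective and 0.266 in Harosoy standard. At 100–200 mg it had 0.490 RPKM in Clark defective, 0.245 in Clark standard and 0.380 in Harosoy defective. In Harosoy standard it had 0 of the 67745712 hits, with a 95% interval that reaches 0.03585 RPKM. Its level at 400–500 mg was 10.7 RPKM in Clark defective and 28.4 RPKM in Clark standard, from 773 and 3328 hits, against 0.0900 RPKM in Harosoy defective and 0.0256 RPKM in Harosoy standard, from 8 and 3 hits. Both oldest Clark libraries stood above all others. The level at 400–500 mg was 38.1-fold that at 50–100 mg in Clark defective (95% interval 28.3 to 52.4) and 54.7-fold in Clark standard (42.9 to 70.9), whereas it was 2.71-fold lower in Harosoy defective and 10.4-fold lower in Harosoy standard, the last from 3 hits. In the order of levels 8 of the 11 neighbouring steps were within counting error, so that most neighbouring low libraries cannot be ranked at this depth. Low libraries further apart could differ beyond it. Clark defective, for example, had 0.543 of the Clark standard level at 50–100 mg (95% interval 0.364 to 0.803).

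The difference between the backgrounds in this developmental change of F3'5'H was 3.98 on the log2 scale (SE 0.491, unadjusted p = 0.0001094), but its limma adjusted p over all models was 0.2245. The stage effect averaged over the 4 lines was 1.74 (SE 0.797, adjusted p = 0.0983) and the Clark over Harosoy difference averaged over stages was 1.4997 (SE 0.6797, adjusted p = 0.1592), so that neither passed. F3'5'H passed the filter of the fit, a minimum of 1 RPKM in 2 libraries, only through the pair of Clark libraries in which it was high. At 400–500 mg the ratio of the Clark to the Harosoy level had a 95% interval of 60.1 to 277 in the defective lines, and the Clark level was 1108-fold the Harosoy level in the standard lines (379 to 5376), where Harosoy had 3 hits.

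DFR1 supplies leucoanthocyanidins to both branches and was the member with the highest level in the young Harosoy coats. DFR1 at 50–100 mg had 150.0 RPKM in Clark defective, 162 in Clark standard, 309 in Harosoy defective and 259 in Harosoy standard. At 100–200 mg it had 45.1 RPKM in Clark defective, 35.97 in Clark standard, 148 in Harosoy defective and 89.7 in Harosoy standard. Its level at 400–500 mg was 11.1 RPKM in Clark defective, 14.0 in Clark standard, 8.92 in Harosoy defective and 11.7 in Harosoy standard. DFR1 was thus the only member that was at 5 RPKM or more in all 12 libraries. In the oldest coats it was 13.6-fold lower than at 50–100 mg in Clark defective, 11.6-fold lower in Clark standard, 34.6-fold lower in Harosoy defective and 22.1-fold lower in Harosoy standard, and over the lines it fell by 4.10 on the log2 scale (SE 0.344, limma adjusted p = 3.657e-05). Among its neighbouring levels 2 of 11 steps were within counting error.

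DFR1 was lower in Clark than in Harosoy at 50–100 and 100–200 mg. The Harosoy level at 50–100 mg was 2.06-fold the Clark level in the defective lines and 1.60-fold in the standard lines. The Harosoy level at 100–200 mg was 3.28-fold the Clark level in the defective lines and 2.49-fold in the standard lines. At 400–500 mg the Clark level was 1.24-fold the Harosoy level in the defective lines (95% interval 1.11 to 1.38) and 1.19-fold in the standard lines (1.10 to 1.29). The direction therefore differed between the oldest stage and both earlier ones. Averaged over the 6 matched comparisons the Clark over Harosoy difference was −0.70 on the log2 scale (SE 0.274, limma adjusted p = 0.1147). Without the 400–500 mg libraries it was −1.17 (limma adjusted p = 0.0493), the only 1 of 12 alternative analyses to pass. Across the 12 the difference ranged from −1.17 to −0.30, with adjusted p up to 0.829.

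ANS makes the coloured anthocyanidins and had the highest early level of the 5 genes in Clark. ANS at 50–100 mg had 257 RPKM in Clark defective, 322 in Clark standard, 267 in Harosoy defective and 242 in Harosoy standard. At 100–200 mg it had 54.0 RPKM in Clark defective, 36.7 in Clark standard, 83.6 in Harosoy defective and 20.9 in Harosoy standard. Its level at 400–500 mg was 31.0 RPKM in Clark defective, 57.2 in Clark standard, 2.03 in Harosoy defective and 2.34 in Harosoy standard. All 4 lines started within 1.33-fold of one another, and at the oldest stage the Clark level was 15.3-fold the Harosoy level in the defective lines (95% interval 12.99 to 18.2) and 24.4-fold in the standard lines (21.5 to 28.0).

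The level of ANS at 400–500 mg was 8.28-fold lower than at 50–100 mg in Clark defective, 5.635-fold lower in Clark standard, 132-fold lower in Harosoy defective and 103-fold lower in Harosoy standard. ANS fell by 4.53 on the log2 scale over the lines (SE 0.779, limma adjusted p = 0.001425). In Clark standard the level at 400–500 mg was 1.56-fold that at 100–200 mg (95% interval 1.502 to 1.618), whereas it was 1.74-fold lower in Clark defective, 41.3-fold lower in Harosoy defective and 8.93-fold lower in Harosoy standard, comparisons that also cross the change of platform. The difference between the backgrounds in the change of ANS was 3.58 on the log2 scale (SE 0.752, unadjusted p = 0.002341, limma adjusted p = 0.3917). The Clark over Harosoy difference over all stages was 1.34 (SE 0.635, adjusted p = 0.1752). Only 1 of the 11 neighbouring steps in its order of levels, that between the Harosoy lines at 400–500 mg, was within counting error.

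ANR1 diverts anthocyanidins into proanthocyanidins and had the steepest decline of the 5 genes. ANR1 at 50–100 mg had 146 RPKM in Clark defective, 162 in Clark standard, 145 in Harosoy defective and 131 in Harosoy standard. At 100–200 mg it had 3.80 RPKM in Clark defective, 1.52 in Clark standard, 2.64 in Harosoy defective and 0.223 in Harosoy standard, from 365, 228, 218 and 20 hits. Its level at 400–500 mg was 0.0794 RPKM in Clark defective, 0.557 in Clark standard, 0.361 in Harosoy defective and 0.225 in Harosoy standard, from 5, 57, 28 and 23 hits. All 4 youngest libraries were therefore at 131 RPKM or more, and none of the others reached 5 RPKM. In the oldest coats ANR1 was 1836-fold lower than at 50–100 mg in Clark defective, a ratio resting on 5 hits (95% interval 786.6 to 5655). It was 290.5-fold lower in Clark standard, 400.5-fold lower in Harosoy defective and 580.4-fold lower in Harosoy standard. ANR1 fell by 6.82 on the log2 scale over the lines (SE 0.303, limma adjusted p = 2.946e-06). The Clark over Harosoy difference was 0.30 (SE 0.162, adjusted p = 0.236), and the developmental change differed between the backgrounds by −0.15 (SE 0.629, adjusted p = 0.974).

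Between 400–500 mg and 50–100 mg, which shared a platform, 4 of the 5 members passed the threshold and all 4 fell, and none rose past it. Among all 46237 models tested 50.3% passed, 28.2% lower and 22.1% higher, with a median log2 difference of −0.02. The differences of the 4 members lay within the lowest 0.6% of all models. In the same comparison the photosystem genes summed to 14.9 to 58.9 RPKM at 400–500 mg and 197.2 to 272.6 RPKM at 50–100 mg, and the storage protein genes to 236.7 to 1092 RPKM at 400–500 mg and 38.8 to 101.9 RPKM at 50–100 mg. Among the seed coat genes PRP1 had 12.2 to 43.1 RPKM at 400–500 mg and 8714 to 12890 RPKM at 50–100 mg, whereas PRP2 had 1313 to 4584 RPKM at 400–500 mg and 4.12 to 24.1 RPKM at 50–100 mg. Whether these shifts in tissue markers have a part in the decline was not tested, and in whole seed coats fewer cells of a type and less RNA per cell cannot be told apart. For the developmental change in Clark against that in Harosoy, 0 models (0%) passed the threshold in limma and 3937 had an unadjusted p under 0.05, and no member passed.

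Between Clark and Harosoy, 1 of the 5 members (F3'H, higher) passed, against 16.4% of all models, 8.04% of them higher and 8.33% lower. A member count of that size is near the background. In the matched comparisons F3'5'H and ANS were furthest apart at 400–500 mg, F3'H in both genotypes at 50–100 mg, and DFR1 at 100–200 mg.

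**Figure D2:**
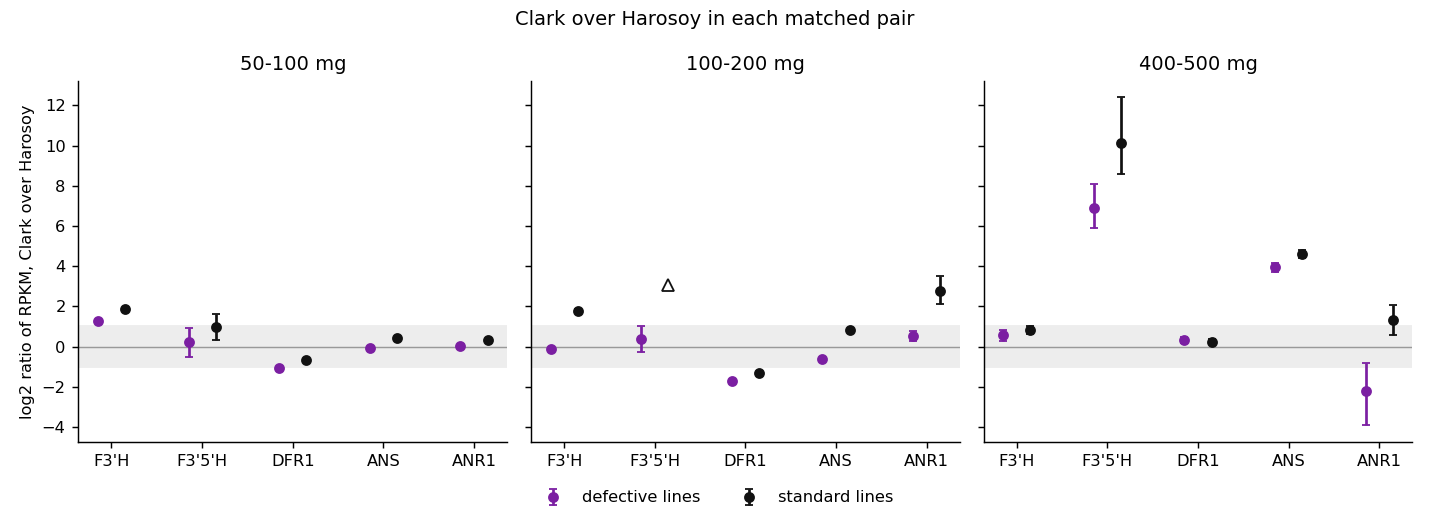
Log2 ratio of RPKM, Clark over Harosoy, for each gene at each stage in the defective lines and in the standard lines, with 95% counting intervals and an open triangle for a lower bound where Harosoy standard had no hits. Points inside the grey band differ by less than 2-fold, and F3'5'H (60.1-fold to 277-fold by its interval in the defective lines and 1108-fold in the standard lines) and ANS (15.3-fold and 24.4-fold) stand far above it at 400–500 mg.

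The net pattern mutation was compared within each isoline pair by a difference of 2-fold or more with the higher library at 5 RPKM or above, which are the fold and level parts of the study's criterion without its DESeq p-value. At 50–100 mg no member met it in Clark, where 3.94% of all models with at least 5 RPKM did, nor in Harosoy, where 0.572% did. The defective levels of F3'H, DFR1, ANS and ANR1 at this stage were 0.797 to 0.929 of the standard levels in Clark and 1.10 to 1.24 times the standard levels in Harosoy. All 4 were slightly lower in Clark defective and slightly higher in Harosoy defective, each beyond counting error. The shares of all models with these directions were not counted. F3'5'H was 0.543 of the standard level in Clark from 46 and 66 hits, and 0.915 in Harosoy from 29 and 30 hits.

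At 100–200 mg the pair in Harosoy separated most clearly. F3'H was 3.49-fold higher in Harosoy defective than in Harosoy standard (95% interval 3.24 to 3.77), and ANS was 4.0-fold higher (3.80 to 4.21). These 2 of the 3 members with at least 5 RPKM met the criterion, against 14.3% of all models, 5.78% higher and 8.5% lower. DFR1 was 1.65-fold higher in Harosoy defective (1.60 to 1.70). ANR1 was 11.9-fold higher (7.48 to 19.8), from 218 and 20 hits, and F3'5'H at least 13.04-fold higher, from 36 hits against none, but both stayed under 5 RPKM. All 5 members were thus higher in Harosoy defective than in Harosoy standard at this stage. These 5 ratios came from the same library on each side, so that the members share its error. The share of all models that were higher by any amount in this pair was not counted.

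In the Clark pair at 100–200 mg no member met the criterion, against 4.77% of all models. In Clark defective ANS was 1.47-fold the level of Clark standard (95% interval 1.42 to 1.53), DFR1 1.25-fold (1.20 to 1.31), ANR1 2.495-fold (2.11 to 2.96) and F3'5'H 2.003-fold (1.31 to 3.07), while F3'H was 0.918 of the standard level (0.878 to 0.960). ANR1 and F3'5'H were again under 5 RPKM. Over both backgrounds the difference at 100–200 mg was 1.25 on the log2 scale for ANR1 (SE 0.236, limma adjusted p = 0.1606), 1.25 for ANS (SE 0.368, adjusted p = 0.2446), 0.52 for DFR1 (SE 0.179, adjusted p = 0.2913), 0.78 for F3'H (SE 0.411, adjusted p = 0.4495) and 0.36 for F3'5'H (SE 0.322, adjusted p = 0.6567). No member passed, and 14 of the 46237 models (0.0303%) did. At this stage PRP1 had 6181 RPKM in Clark defective against 873.5 in Clark standard and 5890 in Harosoy defective against 162.3 in Harosoy standard. PRP2 ran the other way, with 173.8 RPKM in Clark defective against 809.4 in Clark standard and 8.68 in Harosoy defective against 3438 in Harosoy standard, so that the sum of the seed coat genes is no measure of seed coat content here. The storage protein genes summed to 20.4 RPKM in Clark defective against 85.8 in Clark standard. In Harosoy they summed to 408.3 RPKM in the defective line against 453.1 in the standard line. Single storage protein genes ran from 10.3 to 106.0 RPKM in Harosoy defective and from 0.240 to 300.8 RPKM in Harosoy standard. Their sum is therefore no measure of cotyledon content in that pair. The part of these tissue markers in the differences was not tested.

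All 5 members were lower in Clark defective than in Clark standard at 400–500 mg, from 1 library on each side. The share of all models that were lower in this pair was not counted. F3'5'H was 2.65-fold lower in Clark defective than in Clark standard (defective over standard 0.378, 95% interval 0.349 to 0.408), 1 of 3 members with at least 5 RPKM to meet the criterion, against 3.22% of all models, 1.27% higher and 1.96% lower. This gene stands in the study's own list of changed genes for Clark, so that its difference is not independent evidence. ANS was 0.542 of the standard level in Clark defective (0.515 to 0.571), DFR1 0.793 (0.722 to 0.870) and F3'H 0.751 (0.641 to 0.877), and ANR1 was 0.143 (0.0446 to 0.353) from 5 and 57 hits. Each of these intervals lay below 1.

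In the Harosoy pair at 400–500 mg no member met the criterion, against 9.64% of all models. DFR1 was 0.762 of the standard level in Harosoy defective (0.692 to 0.838), whereas for F3'H (0.754 to 1.09), ANS (0.702 to 1.07), ANR1 (0.891 to 2.92) and F3'5'H (0.844 to 20.6) the interval of the ratio held 1. In the limma fit 0 models (0%) passed at 50–100 mg and 0 (0%) at 400–500 mg, with 646 and 1282 models at an unadjusted p under 0.05. The member differences at 400–500 mg were −0.62 for F3'5'H (SE 0.322), −0.50 for ANS (SE 0.368), −0.33 for DFR1 (SE 0.179), −0.20 for F3'H (SE 0.411) and −0.19 for ANR1 (SE 0.236). Averaged over the stages 1 model (0.00216%) passed, and 1 (0.00216%) passed for the Clark effect of the mutation against the Harosoy effect, neither of them a member (member adjusted p = 0.8462 to 0.9222 over the stages and 0.8312 to 0.8963 for Clark against Harosoy).

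**Figure D3:**
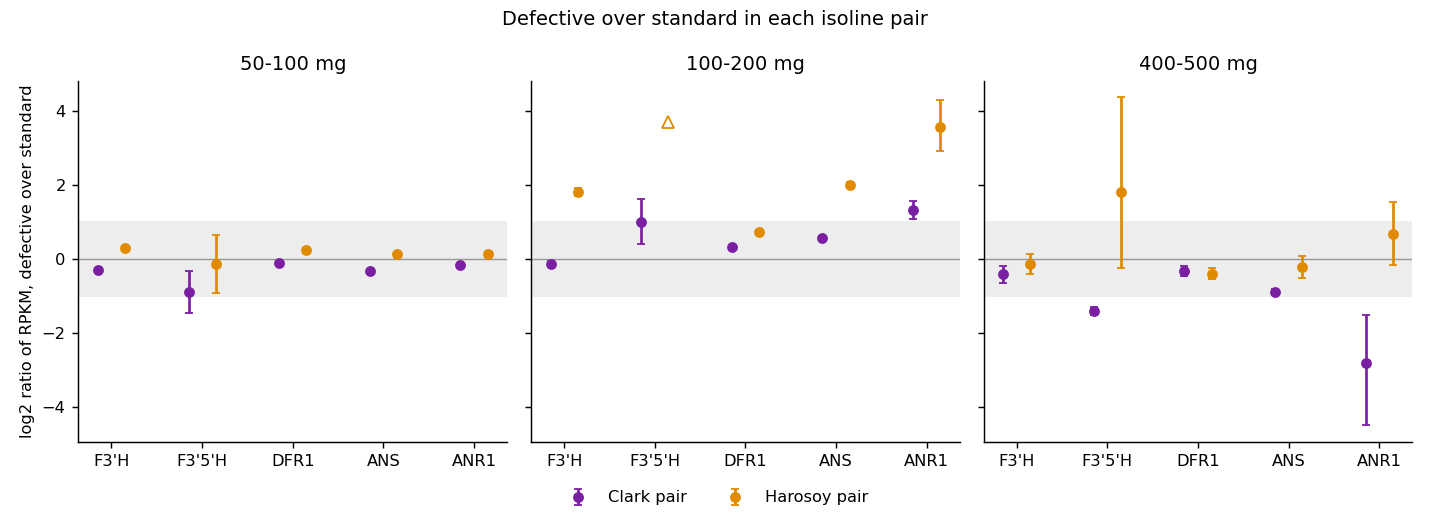
Log2 ratio of RPKM, defective over standard, for each gene in the Clark pair and in the Harosoy pair at each stage, with 95% counting intervals and an open triangle for a lower bound where the standard library had no hits. Points inside the grey band differ by less than 2-fold. At 100–200 mg the Harosoy pair leaves it for F3'H (3.49-fold), ANS (4.0-fold), ANR1 (11.9-fold) and F3'5'H (at least 13.04-fold). The Clark pair leaves it at that stage for ANR1 (2.495-fold) and F3'5'H (2.003-fold).

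For the genes that fell with age, a library at 100–200 mg can be placed between the outer stages of its own line. By 100–200 mg F3'H had made 50.1% of its log2 fall in Clark defective, 53.6% in Clark standard, 29.2% in Harosoy defective and 65.2% in Harosoy standard. DFR1 had made 47.0% in Clark defective, 62.1% in Clark standard, 21.3% in Harosoy defective and 34.9% in Harosoy standard. ANS had made 74.1% in Clark defective, 125.3% in Clark standard, 25.7% in Harosoy defective and 56.1% in Harosoy standard, where a share above 100% means a level below that of the oldest stage. ANR1 had made 69.6% in Clark defective, 89.6% in Clark standard, 79.0% in Harosoy defective and 100.0% in Harosoy standard. In all 8 comparisons the share was lower in the defective line than in the standard line, with differences of −3.5 to −51.3 percentage points. The share also depends on the outer stages and is not a level at 100–200 mg. F3'H in Clark had 22.5 RPKM in the defective and 24.5 RPKM in the standard line at that stage. For ANS in Clark standard the rise from 36.7 RPKM at 100–200 mg to 57.2 RPKM at 400–500 mg made the total fall smaller. These 8 values rest on 1 library per line at 100–200 mg, so that the members of a line share its error.

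Lower shares in the defective lines ran through other declining genes. Of the models that fell by at least 2 on the log2 scale in both lines, 1201 in Clark had made a median of 23.5% of their fall in Clark defective and 36.5% in Clark standard, with a median difference of −12.5 points (quartiles −24.6 and −2.2). In Harosoy 1615 such models had made 13.8% in Harosoy defective and 52.3% in Harosoy standard, with a median difference of −33.5 points (quartiles −50.2 and −19.2). Of the 8 member differences 7 lay within or above these quartile ranges, and that of ANS in Clark, −51.3 points, lay below them, with 6.7% of the Clark models lower still. The difference was larger in size than the median difference for 4 of the 8, namely DFR1, ANS and ANR1 in Clark and F3'H in Harosoy.

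**Figure D4:**
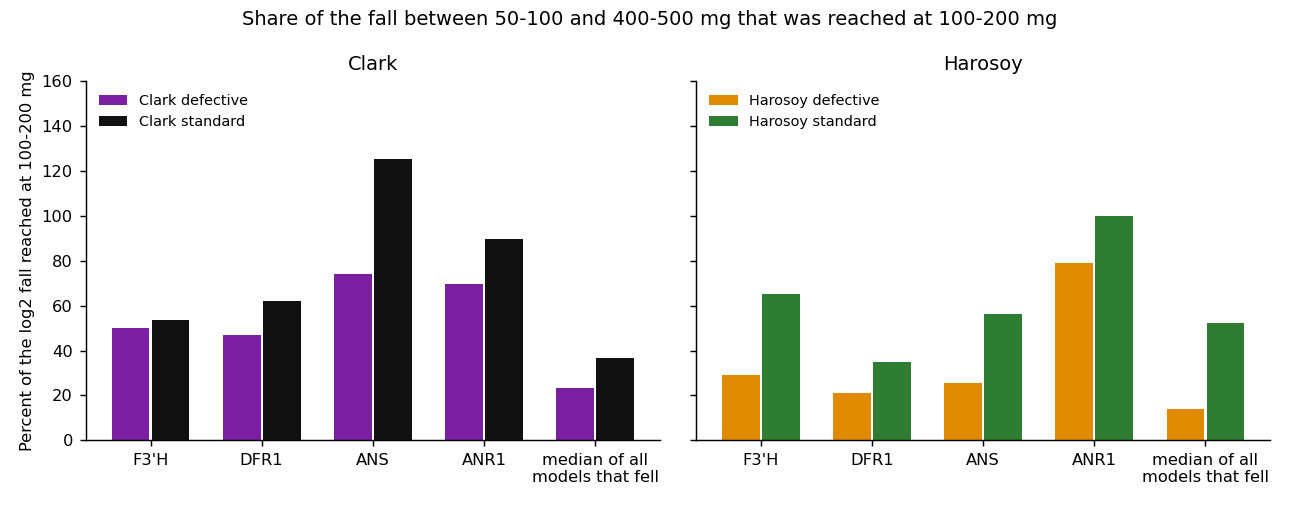
Percent of the log2 fall between 50–100 and 400–500 mg that each line had reached at 100–200 mg, for the 4 members that fell and as the median over all models that fell by at least 2 on the log2 scale in both lines of a background (1201 in Clark, 1615 in Harosoy). Each defective bar is lower than the standard bar beside it, for the members and for the median of all such models.

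The balance between the members shifted with age and background. ANR1, the entry to proanthocyanidins, stood at 56.8% of the ANS level in Clark defective, 50.2% in Clark standard, 54.2% in Harosoy defective and 54.0% in Harosoy standard at 50–100 mg. The share at 100–200 mg was 7.04% in Clark defective, 4.15% in Clark standard, 3.16% in Harosoy defective and 1.07% in Harosoy standard. The ratio was close in all 4 lines at first and lower in all of them at the next stage. The oldest coats had 0.256% in Clark defective and 0.975% in Clark standard, and 17.8% in Harosoy defective and 9.62% in Harosoy standard, the Harosoy values resting on 28 and 23 ANR1 hits and an ANS level near 2 RPKM.

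Among the B-ring hydroxylases, F3'5'H exceeded F3'H only in the oldest Clark coats. Its level was 4.05 times that of F3'H in Clark defective and 8.07 times in Clark standard at 400–500 mg, and 5.02% of it in Harosoy defective and 1.30% in Harosoy standard. In all 8 libraries of the younger stages F3'5'H was at most 2.18% of F3'H. The ratio of DFR1 to ANS separated the backgrounds at each stage. At 50–100 mg it was 0.584 in Clark defective, 0.501 in Clark standard, 1.16 in Harosoy defective and 1.07 in Harosoy standard. The same ratio at 400–500 mg was 0.357 in Clark defective, 0.244 in Clark standard, 4.40 in Harosoy defective and 5.004 in Harosoy standard. In the oldest coats ANS therefore made up 55.9% of the summed RPKM of the 5 genes in Clark defective and 55.2% in Clark standard, and DFR1 made up 67.6% in Harosoy defective and 71.9% in Harosoy standard.

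Over the 12 libraries, the log2(RPKM + 1) values of F3'H, DFR1, ANS and ANR1 were correlated pairwise with a Pearson r of 0.819 (DFR1 and ANR1) to 0.903 (F3'H and ANR1), and those of F3'5'H with the other 4 with r of −0.454 (DFR1) to 0.046 (ANS). These values describe libraries that share stages and lines. Among 22077 loci compared, the pattern most like that of ANS was that of Glyma11g03010, annotated as a leucoanthocyanidin dioxygenase, which is another name for ANS activity (r = 0.999). Glyma11g03010 had 28.4 RPKM in Clark defective, 57.1 in Clark standard, 1.60 in Harosoy defective and 1.87 in Harosoy standard at 400–500 mg, and a read matching both copies could be counted on each, so that their levels are not separate measurements. The patterns most like that of F3'5'H were those of Glyma18g04960 (r = 0.984) and Glyma11g33260 (r = 0.975), both annotated as glutathione S-transferases, which reached 31.8 and 77.7 RPKM. F3'5'H was under 1 RPKM in 10 of the 12 libraries. Each r with it therefore rests largely on the 2 oldest Clark libraries, and a locus high only there would score near 1. The next locus for ANS was Glyma19g36070 (r = 0.967), followed by Glyma08g05250 (r = 0.964), and that for F3'5'H was Glyma02g01870 (r = 0.949). The nearest to F3'H were Glyma08g39380 (r = 0.988), Glyma02g00730 (r = 0.985) and Glyma17g07680 (r = 0.985). Those nearest to DFR1 were Glyma07g30840 (r = 0.991), Glyma07g08910 (r = 0.987) and Glyma15g21610 (r = 0.987), and those nearest to ANR1 Glyma02g45920 (r = 0.998), Glyma14g02850 (r = 0.997) and Glyma19g02890 (r = 0.997). Annotations were taken only from the study's lists of changed genes. All but the leucoanthocyanidin dioxygenase and the glutathione S-transferases were not found there, so that no annotation is given for them.

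The rest of the pathway was followed in 38 loci that the study annotates as flavonoid genes in its lists of changed genes, a choice made on these libraries that is therefore no independent evidence of direction. Between 400–500 mg and 50–100 mg, 16 of the 38 rose and 7 fell, against 22.1% higher and 28.2% lower of all models, with a median log2 difference of 0.95 against −0.02 over all models. The 7 that fell included Glyma11g03010 (−5.01) and 2 of the 3 loci annotated as flavanone 3-hydroxylase, the enzyme that makes dihydroflavonols, namely Glyma02g05450 (−4.02) and Glyma02g05470 (−4.05). The third, Glyma19g45010, had 0.52 (limma adjusted p = 0.2579). Glyma02g05450 had 47.6 RPKM in Clark defective, 99.4 in Clark standard, 35.96 in Harosoy defective and 31.1 in Harosoy standard at 400–500 mg, against 691 RPKM in Clark defective, 946 in Clark standard, 834 in Harosoy defective and 740 in Harosoy standard at 50–100 mg. Both TRANSPARENT TESTA 1 zinc finger genes, named for a regulator of seed coat tannins in Arabidopsis, also fell (Glyma14g35140, −3.29, and Glyma13g01720, −3.42), as did 2 of 9 glycosyltransferases. Between defective and standard at 100–200 mg Glyma14g35140 had 2.585 (limma adjusted p = 0.1095) and Glyma13g01720 2.53 (limma adjusted p = 0.0791). The study reports both as higher in the defective lines at that stage.

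The loci that rose came from several steps. Some are neighbours by identifier with the same annotation and may share reads, such as Glyma16g29330, Glyma16g29340 and Glyma16g29350, or Glyma19g00980 and Glyma19g00990. The counts are therefore not all of separate measurements. All 5 isoflavone branch genes, both loci annotated as flavonol synthase/flavanone 3-hydroxylase, both TRANSPARENT TESTA 12 genes, named for a vacuolar transporter of tannin precursors in Arabidopsis, the anthocyanin acyltransferase Glyma01g27810 (2.41), 4 of 9 glycosyltransferases and 2 of 3 loci annotated as dihydroflavonol 4-reductase rose. The last are not DFR1, and moved the opposite way to it, with Glyma19g00990 at 13.4 RPKM in Clark defective, 28.2 in Clark standard, 8.40 in Harosoy defective and 6.67 in Harosoy standard at 400–500 mg, against 1.52 RPKM in Clark defective, 0.931 in Clark standard, 0.525 in Harosoy defective and 1.25 in Harosoy standard at 50–100 mg. Among the isoflavone branch genes, the 6'-deoxychalcone synthase loci had 3.04 to 7.54 RPKM in Clark defective and 7.58 to 26.6 in Clark standard at 400–500 mg. In Harosoy defective they had 0.451 to 1.38 RPKM and in Harosoy standard 0.260 to 0.596 at that stage. Glyma16g29340 and Glyma16g29350 had 32.2 and 22.0 RPKM in Harosoy defective at 400–500 mg and at most 2.83 in any other library. None of the 6 chalcone synthase loci, whose copies are closely related and may share reads, and neither of the 4-coumarate-CoA ligase loci passed.

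Between the backgrounds 3 of the 38 were higher in Clark and none lower, a share near the 8.04% higher of all models, with a median difference of 0.20 against 0.05 over all models. These were the laccases Glyma16g27480 (3.40, limma adjusted p = 0.0007665) and Glyma02g08380 (1.51, adjusted p = 0.0102), annotated as TRANSPARENT TESTA 10, which oxidises tannins in Arabidopsis, and the glycosyltransferase Glyma08g07130 (0.84, adjusted p = 0.01766). At no stage did any of the 38 pass between defective and standard, in a fit that passed 0, 14 and 0 of 46237 models. The median difference was −0.05 at 50–100 mg, −0.15 at 100–200 mg and −0.26 at 400–500 mg, against 0.01, −0.01 and −0.04 over all models. In stage order, 6, 3 and 1 of 19, 14 and 30 loci with at least 5 RPKM were 2-fold higher in Clark defective. Lower were 5, 0 and 11, against 3.94%, 4.77% and 3.22% of all models higher or lower. In Harosoy defective 0, 11 and 10 of 18, 22 and 29 were higher and 0, 9 and 8 lower, against 0.572%, 14.3% and 9.64%. The loci came from lists of changed genes, so that these counts are no separate evidence.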

How the data were processed

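The authors aligned the reads with Bowtie to the soybean gene models of genome version 1.0, with up to 3 mismatches and 25 alignments per read, and deposited RPKM values for 78773 models in 12 libraries. RPKM values are whole multiples of a step set by model length and library total, and these steps gave whole hits within 0.02 for 71434 of 71441 expressed models (99.99%). A read could count on several models, so hits are alignments and close copies share them. Ratios of libraries have exact conditional binomial intervals and levels exact Poisson intervals, at the 95% level, with a floor of 3 hits where a library had none.

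The limma fits (trend, Benjamini-Hochberg adjustment over all models, threshold 0.05) used log2(RPKM + 1) of all 12 libraries and the 46237 models that reached 1 RPKM in 2 or more of them. This scale understates changes of low genes. Defective versus standard had a block for each of the 6 isoline pairs, Clark versus Harosoy a block for each genotype and stage, and the stages a block for each of the 4 lines. Residual degrees of freedom were 3 to 6, and p-values rest on the backgrounds, stages or lines standing in for replicates. The fits of 5 of the 8 contrasts were tested on simulated data. The members, the pathway and marker lists and the rule for named genes (the members, list loci named with their values, and the 3 loci with the most similar pattern for each, out of loci that reached 5 RPKM in 2 or more libraries) were chosen with earlier results of these data known. The count test of the study was not repeated here. Python 3.11.15 (numpy 2.4.6, pandas 2.3.3, scipy 1.17.1, numba 0.67.0, matplotlib 3.10.9) and R 4.3.3 with limma 3.58.1 were used.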

Additional observations from a re-analysis of the deposited data

Results flagged for a closer look

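Among the 5 genes, 6 contrasts had every library of one group on one side and every library of the other on the opposite side. Each had 2 libraries or pairs a side. They were picked by a scan of stage, genotype and background contrasts in each gene. With 2 a side, opposite directions also arise by chance, and their share over all models was not counted. The change of F3'5'H from 50–100 mg to 400–500 mg averaged 3.73 on the log2 scale in Clark and −0.25 in Harosoy, a difference of 3.98 that was tested and had a limma adjusted p of 0.2245. The other 5 differences were not tested. The Clark over Harosoy difference of DFR1 averaged −0.86 at 50–100 mg and 0.26 at 400–500 mg (difference −1.11), and −1.49 at 100–200 mg against that same value (difference −1.75). The defective over standard difference of DFR1 averaged 0.52 at 100–200 mg and −0.33 at 400–500 mg (difference 0.85), and that of ANS 1.25 and −0.50 at these stages (difference 1.75). The defective over standard difference of F3'5'H averaged −0.14 at 50–100 mg and 0.36 at 100–200 mg (difference −0.50), all from libraries under 1 RPKM.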

How the results depend on the processing

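Across 432 recomputed member differences, 417 kept their direction and their side of the threshold. The declines of F3'H, DFR1, ANS and ANR1 with age passed in all 13 alternatives each, and no alternative brought F3'5'H past the threshold there (adjusted p = 0.0531 to 0.217). Without the 100–200 mg libraries the defective over standard difference over the stages reversed for ANS (−0.2972), F3'H (−0.1008), ANR1 (−0.0951) and DFR1 (−0.1301), which shows that their small positive means rested on that stage. With a pseudocount of 0.1 RPKM it reversed for F3'5'H over the stages (0.2416) and for F3'H at 50–100 mg (0.0011), and the cause was not tested.

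Between defective and standard at 100–200 mg 14 models passed, against 0 with a pseudocount of 0.1, 22 with one of 5, 215 with no filter, 7 with 1 model per locus, 2 with no block and 0 from the 4 libraries of the stage alone. At 400–500 mg 1 passed with no filter. Over the stages, and for Clark against Harosoy, the count of 1 became 4 and 5 with a pseudocount of 0.1, and 0 with a pseudocount of 5, no filter, no block or without the libraries of any 1 stage. Clark versus Harosoy gave 4928 models with no filter, 2246 with no block, and 2096, 291 and 706 without the 50–100, 100–200 and 400–500 mg libraries. The developmental change in Clark against Harosoy gave 19 with no filter and 10 with no block.

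A 3-fold criterion gave 260, 349 and 282 models in Clark and 81, 1880 and 940 in Harosoy from the youngest to the oldest stage, and a minimum of 1 RPKM gave 2007, 2955 and 2114 in Clark and 473, 7228 and 4681 in Harosoy. Of the members, F3'5'H at 400–500 mg in Clark left the list at 3-fold (0 members), and ANR1 entered it at 100–200 mg with the lower minimum in Clark (1 member) and in Harosoy (3 members against 2). No paired analysis was possible because each line and stage has 1 library, beyond the blocks of the fits. Depth limits F3'5'H outside the oldest Clark libraries and ANR1 at 400–500 mg, which rest on at most 66 hits a library.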
